A study of Homo sapiens with 12 samples.

Results

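The genes described here are 138 genes to which the authors assigned many G-quadruplexes. They were taken from 6 deposited lists of G4-related genes, 1 for raised and 1 for lowered genes of each of 3 compounds, in which every gene carries a G4Number, the authors' number of G4s for that gene. A name was included when its highest G4Number over the lists was 8 or more and it was present in all 3 deposited comparison tables. This gave 138 of the 950 listed names found in all 3 tables, and 138 of the 15251 genes common to the tables. Names with a highest G4Number of 1, of which there were 257, served as the comparison. All groups were grown from MDA-MB-231, an established cell line of human breast cancer that lacks hormone receptors and HER2 amplification. Cells received SAHA, compound 1 or a6 at 2.5 µM, or DMSO (Ctrl), for 48 h, and RNA was sequenced from 3 libraries in each of the 4 groups, 12 in all. SAHA, also called vorinostat, inhibits histone deacetylases (HDACs), enzymes that remove acetyl groups from histones and other proteins. The labels class SAHA and compound 1 as single-targeting and a6 as a dual-targeting compound for HDACs and G4s. Compound 1 and a6 are known here by code names alone.

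A G4 is a four-stranded structure that guanine-rich DNA or RNA can fold into when runs of guanines stack into planar tetrads held by hydrogen bonds and a central metal ion. Sequences able to form G4s are common at promoters, in first introns, in untranslated regions and at telomeres, and promoters of growth genes such as MYC, KIT and TERT are textbook examples. Helicases such as PIF1, BLM and DHX36 unwind G4s, and small molecules that bind G4s have been used to change transcription and telomere maintenance. HDAC inhibitors raise histone acetylation and change the transcription of many genes in either direction.

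Because the lists were made from genes changed by the compounds, the contrasts with Ctrl helped choose the members. Fold changes against Ctrl are therefore given as descriptions. The contrasts also share the same Ctrl libraries, and values of different compounds are set side by side without being counted as separate evidence. The deposited tables give 1 mean normalised count, log2 fold change and standard error per gene and no value per library, so the spread between the 3 libraries of a group is available here through the standard error alone. Mean counts with a compound and in Ctrl were computed from these, and a Ctrl mean differs slightly between tables because each table was normalised separately. A gene was called changed when its adjusted p in the authors' DESeq2 test was under 0.05, with no limit on fold.

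Across the 6 lists, 562 of 1579 name entries (35.6%) were not in the authors' list of changed genes for the same compound and direction. All 562 of these names contained the name of a gene that was in that list as an unbroken run of letters. Among all names of the comparison table outside the list of changed genes, 1.64% contained such a name for genes raised by SAHA. The share was 1.38% for genes lowered by SAHA and 2.16% for genes lowered by a6. Names of the G4-related lists were not taken out of these, so the shares are no separate background. In the list of a6-lowered genes, 208 of 326 names (63.8%) had entered in this way, and in the list of SAHA-raised genes 187 of 722 (25.9%).

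**Figure D1:**
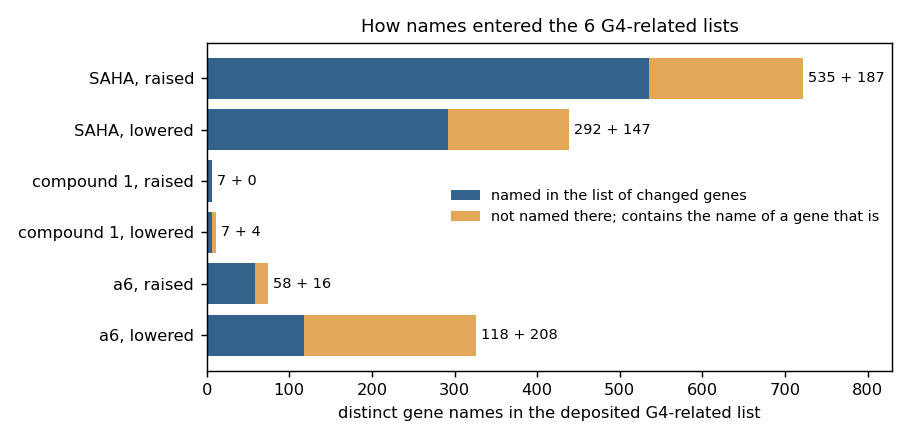
Number of distinct gene names (horizontal axis) in each of the 6 deposited G4-related lists (vertical axis), split into names that were in the matching list of changed genes (blue) and names that were not and contained the name of a gene that was (orange). The list of a6-lowered genes holds 118 names of the first kind and 208 of the second, and the list of SAHA-raised genes holds 535 and 187.

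Of the 138 members, 100 were in a list of changed genes under their own name and 38 were in none that matched the list they came from. These lists, set by an unadjusted p under 0.05 and at least a 2-fold change, held 10.4% of all genes in the authors' deposited table for SAHA, 0.159% for compound 1 and 2.61% for a6, and since they chose the members, no reading is made of the 100. All 38 contained the name of a changed gene. The catalytic subunits of the SWI/SNF chromatin remodelling complex are examples: SMARCA4 contains ARC, and SMARCA2 contains ARC and CA2, and both names stood in the list of SAHA-raised genes. TNNT1, the slow skeletal muscle troponin T, contains NNT, a mitochondrial transhydrogenase gene that SAHA lowered. XRCC3, a gene of homologous recombination, and the amino acid transporter SLC38A1 contain C3 and stood in the list of a6-lowered genes, where the tyrosine phosphatase receptors PTPRF and PTPRJ contain TPR. TNFRSF19, a TNF receptor superfamily member, was the 1 member listed as both raised and lowered by SAHA. It was in the list of SAHA-raised genes under its own name, and its name contains RSF1, which was in the list of SAHA-lowered genes.

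SAHA lists contributed 113 of the members, a6 lists 42 and compound 1 lists 3, and 20 members were listed by more than 1 compound. The highest G4Number ran from 8 to 49 with a median of 11, and 18 members had 20 or more. The number was the same wherever a name was repeated except for 6 names, of which SAMD11 was the 1 member, with entries of 6 and 13 in the same list. Per gene annotated on GRCh38 in GENCODE 29, the members had a median of 11 transcripts, against 5 for names with a G4Number of 1 and 6 for all genes in the 3 tables. NDRG2, with a G4Number of 49, had 78 annotated transcripts, and KAT6B, with 48, had 41. AC010336.2, with a G4Number of 9, had 1. Over the 943 listed names matched to the annotation, the Spearman correlation of G4Number was 0.35 with the number of transcripts, 0.10 with the length of the gene and 0.14 with the GC content of its transcript, a description across genes that share the same lists. Which region the authors searched for G4s was not given in the sources used here.

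Members also differed from the comparison genes in base composition and in their shares on chromosomes 11 and 19. Shares on other chromosomes were not computed, and no difference in position was tested. Their median transcript GC content was 58.8%, against 53.5% for names with a G4Number of 1 and 49.2% for all genes in the 3 tables. Protein-coding genes made up 90.6% of members, against 78.0% of names with a G4Number of 1. Chromosome 11 held 20 members (14.5%, against 5.45% of names with a G4Number of 1 and 5.59% of all genes) and chromosome 19 held 19 (13.8%, against 8.56% and 7.45%).

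Promoter sequence was read from RefSeq windows on GRCh38.p14 that span 250 bases before to 50 after a gene's start. Windows were matched for 101 of 138 members (73.2%). Under 80% had one, so shares over the group are void as a check and are given as a description of the matched genes. The motif searched was 4 runs of at least 3 G separated by loops of 1 to 7 bases, written GGGNGGGNGGGNGGG with N standing for a whole loop, on either strand, with overlapping matches merged. It was present in 51 of the 101 windows (50.5%, exact 95% interval 40.4 to 60.6%), in 45.1% of the windows of names with a G4Number of 1, in 34.4% of those of all genes in the 3 tables and in 24.1% of all RefSeq promoters. Median GC content of these windows was 67.0% for members, 66.5% for names with a G4Number of 1, 65.3% for all genes in the 3 tables and 58.3% for all RefSeq promoters. The windows of the members with the highest numbers are shown first, 5′ to 3′ on the strand of the gene with motif bases in capitals. Capital G runs mark a motif on the strand of the gene and capital C runs one on the other strand.
NDRG2, minus strand of chr14:21026261-21026560: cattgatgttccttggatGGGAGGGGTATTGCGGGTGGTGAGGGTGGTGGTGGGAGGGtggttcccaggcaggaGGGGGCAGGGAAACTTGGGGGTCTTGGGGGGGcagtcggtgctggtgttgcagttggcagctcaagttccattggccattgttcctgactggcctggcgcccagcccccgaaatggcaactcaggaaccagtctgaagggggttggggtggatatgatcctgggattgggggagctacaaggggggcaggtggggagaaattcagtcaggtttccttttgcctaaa
KAT6B, plus strand of chr10:74825005-74825304: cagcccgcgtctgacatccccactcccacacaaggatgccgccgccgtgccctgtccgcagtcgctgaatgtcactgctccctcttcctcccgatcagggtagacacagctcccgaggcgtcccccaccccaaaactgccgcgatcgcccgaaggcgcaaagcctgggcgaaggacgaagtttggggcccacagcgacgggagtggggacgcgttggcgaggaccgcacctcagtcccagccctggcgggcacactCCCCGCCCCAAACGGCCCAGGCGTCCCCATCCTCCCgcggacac
NFATC1, plus strand of chr18:79395680-79395979: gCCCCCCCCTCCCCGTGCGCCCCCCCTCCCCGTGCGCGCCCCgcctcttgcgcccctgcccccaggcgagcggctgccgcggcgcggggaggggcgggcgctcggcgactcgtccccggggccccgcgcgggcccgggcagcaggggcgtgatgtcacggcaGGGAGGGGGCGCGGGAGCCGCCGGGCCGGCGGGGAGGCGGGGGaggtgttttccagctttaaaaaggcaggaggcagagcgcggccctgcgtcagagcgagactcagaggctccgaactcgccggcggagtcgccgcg

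Of the 10 members called with a6 in the authors' deposited table, 7 had a window, and 3 of these held the motif and 4 did not. The 3 with the motif and 1 of the 4 without it are printed next, the others without it being SEMA3B, CYP1B1-AS1 and SERPINA1. The IGFBP6 and ARHGEF16 windows carry it on the strand opposite the gene and the APLP1 window on the strand of the gene. The window of TLE2, the member with the highest fold change under both SAHA and a6, held no match, which says only that these letters are not in this window.
IGFBP6, plus strand of chr12:53097417-53097716: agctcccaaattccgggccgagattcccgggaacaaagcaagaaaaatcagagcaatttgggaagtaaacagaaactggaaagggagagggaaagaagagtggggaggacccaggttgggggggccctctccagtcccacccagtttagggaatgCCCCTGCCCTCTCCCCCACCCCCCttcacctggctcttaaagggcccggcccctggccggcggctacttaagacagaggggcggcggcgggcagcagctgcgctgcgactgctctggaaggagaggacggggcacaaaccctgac
ARHGEF16, plus strand of chr1:3454415-3454714: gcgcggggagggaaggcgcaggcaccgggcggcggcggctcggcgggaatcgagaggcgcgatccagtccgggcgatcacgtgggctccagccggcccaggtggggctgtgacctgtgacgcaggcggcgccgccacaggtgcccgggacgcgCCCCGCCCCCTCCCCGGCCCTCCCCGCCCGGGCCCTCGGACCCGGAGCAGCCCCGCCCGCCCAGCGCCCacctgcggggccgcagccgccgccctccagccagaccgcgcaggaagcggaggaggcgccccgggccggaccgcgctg
APLP1, plus strand of chr19:35868324-35868623: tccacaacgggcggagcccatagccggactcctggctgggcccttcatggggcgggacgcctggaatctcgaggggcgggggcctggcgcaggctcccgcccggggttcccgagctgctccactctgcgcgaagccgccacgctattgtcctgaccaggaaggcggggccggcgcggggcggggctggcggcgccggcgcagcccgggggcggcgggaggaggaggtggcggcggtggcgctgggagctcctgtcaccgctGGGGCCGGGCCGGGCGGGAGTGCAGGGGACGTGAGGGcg
TLE2, minus strand of chr19:3047586-3047885: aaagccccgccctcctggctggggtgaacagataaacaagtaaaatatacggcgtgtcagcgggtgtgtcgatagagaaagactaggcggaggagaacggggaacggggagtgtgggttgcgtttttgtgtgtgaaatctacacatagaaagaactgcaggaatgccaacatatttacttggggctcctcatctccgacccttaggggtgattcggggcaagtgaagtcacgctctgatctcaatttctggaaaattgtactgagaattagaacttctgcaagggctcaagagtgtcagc

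The 10 members with the highest G4Numbers went different ways with SAHA. NDRG2, a differentiation-associated signalling gene of the NDRG family at chr14:21016763-21070872 on GRCh38, carried the highest number. It averaged 38.7 with SAHA and 9.32 in Ctrl, computed from the authors' deposited table, a log2 fold change of 2.05 ± 0.58 (standard error, DESeq2 adjusted p = 0.00921). The mean was 10.7 with a6 and 9.14 in its Ctrl, and 10.9 with compound 1 and 9.36 in its Ctrl, computed from the authors' deposited tables. KAT6B, a histone acetyltransferase at chr10:74824927-75032624 with a G4Number of 48, averaged 29.8 with SAHA and 76.0 in Ctrl, a log2 fold change of -1.35 ± 0.54 that was not called in the authors' deposited table (DESeq2 adjusted p = 0.117). NFATC1, a calcium-regulated transcription factor with a G4Number of 41, had log2 fold changes of -1.06 ± 0.38 with SAHA and -0.99 ± 0.42 with a6 in the authors' deposited tables, neither called. Thus the 3 highest numbers belonged to 1 gene that rose with SAHA and to 2 genes whose lower values did not pass the test.

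PVT1, a long noncoding RNA gene beside MYC with a G4Number of 35, rose with SAHA to a mean count of 756, against 374 in Ctrl, in the authors' deposited table (log2 fold change 1.02 ± 0.28, DESeq2 adjusted p = 0.00709). FAM86B1, with 34, rose by 1.32 ± 0.36 on the log2 scale in the authors' deposited table, but it belongs to a family of near-identical copies and its share of reads is uncertain. MEIS3, a homeobox factor, and CELF4, an RNA-binding splicing regulator, had uncalled log2 fold changes of 1.16 and 1.49 with SAHA in the authors' deposited table. POLE, the catalytic subunit of the leading-strand DNA polymerase, and RNH1, an inhibitor of ribonucleases, fell by 1.07 and 1.11 on the log2 scale with SAHA in the authors' deposited table (standard errors 0.30 and 0.32). TNNT1, in the lists through a name it contains, was at 1604 with SAHA and 1691 in Ctrl, computed from the authors' deposited table. None of these 10 genes was called with a6 or compound 1 in the authors' deposited tables.

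**Figure D2:**
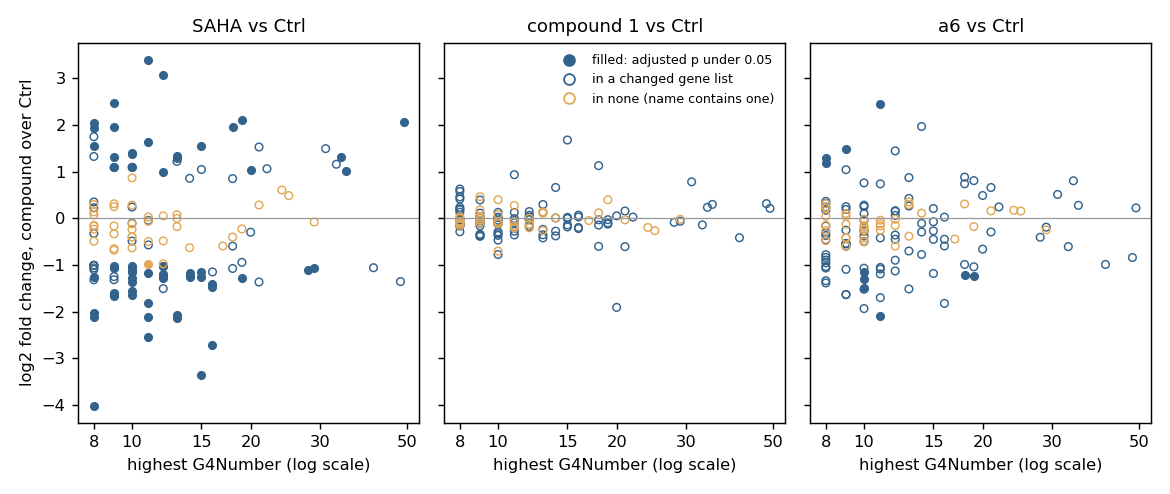
Log2 fold change of the 138 members against Ctrl (vertical axis) by highest G4Number (horizontal axis, log scale), with 1 panel each for SAHA, compound 1 and a6, from the authors' deposited tables. Filled points passed an adjusted p of 0.05, blue points were in a list of changed genes and orange points were in none. SAHA points reach from -4.01 to 3.39 and a6 points from -2.10 to 2.44, compound 1 has no filled point, and 1 orange point is filled.

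With a6, 4 members rose and 6 fell, 10 of 138 (7.25%), where 0.583% of all 15255 genes tested were called, 0.243% higher and 0.341% lower, in the authors' deposited table. Since a6 lists took genes changed by a6, no reading is made of this share. Names with a G4Number of 1 had 3 higher and 5 lower genes among 257 in the authors' deposited table. The median log2 fold change with a6 was -0.25 over the members, -0.10 over names with a G4Number of 1 and -0.03 over all genes in the 3 tables, computed from the authors' deposited table. Bulk RNA does not tell a smaller share of expressing cells from less RNA per cell. P-values here measure the spread between libraries that the labels call biological replicates, part of which may be technical.

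The 4 that rose with a6 were a corepressor, a transcription factor, a membrane protein and an enzyme. TLE2, a Groucho-family corepressor, averaged 43.8 with a6 and 8.04 in Ctrl, computed from the authors' deposited table, a log2 fold change of 2.44 ± 0.58 (DESeq2 adjusted p = 0.0106). FLI1, an ETS transcription factor of blood and endothelial development, averaged 110.2 with a6 and 39.4 in Ctrl (1.48 ± 0.37 on the log2 scale, DESeq2 adjusted p = 0.0215), computed from the authors' deposited table. CYP24A1, the hydroxylase that inactivates vitamin D, averaged 128 with a6 and 52.2 in Ctrl (1.30 ± 0.35, DESeq2 adjusted p = 0.0442), computed from the authors' deposited table. APLP1, an amyloid precursor-like membrane protein, averaged 495 with a6 and 216 in Ctrl (DESeq2 adjusted p = 0.0355), computed from the authors' deposited table. With SAHA each of the 4 rose, with log2 fold changes of 3.39 for TLE2, 2.48 for FLI1, 2.03 for CYP24A1 and 1.93 for APLP1 in the authors' deposited table. The differences of a6 from SAHA for these 4 genes did not pass the z test, with 95% intervals on the log2 scale of -2.50 to 0.60 for TLE2 and -2.03 to 0.04 for FLI1.

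Among the 6 that fell with a6 were 3 secreted proteins. IGFBP6, a binding protein that prefers IGF-II, averaged 378 with a6 and 890.3 in Ctrl, and 376 with SAHA and 912 in Ctrl, computed from the authors' deposited tables (DESeq2 adjusted p = 0.00269 with a6 and 0.00259 with SAHA). SEMA3B, a secreted semaphorin, averaged 658 with a6 and 1462 in Ctrl (-1.15 ± 0.26 on the log2 scale, DESeq2 adjusted p = 0.00456), computed from the authors' deposited table. SERPINA1, the protease inhibitor alpha-1-antitrypsin, averaged 313 with a6 and 725 in Ctrl with an adjusted p of 0.0442 (DESeq2), computed from the authors' deposited table. Its call was lost when fold changes were centred on the median over all genes. The call was also lost once the trend of fold change with transcript GC content was removed. With SAHA, SERPINA1 was not called and had a log2 fold change of -0.59 ± 0.32 in the authors' deposited table. Its difference of a6 from SAHA was -0.62 with a 95% interval of -1.51 to 0.28, which did not pass the z test.

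TAGLN, the actin-binding protein transgelin of contractile cells at chr11:117199321-117204782, had the smallest adjusted p of any member with a6. It averaged 225 with a6 and 962 in Ctrl, computed from the authors' deposited table, a log2 fold change of -2.10 ± 0.28 (DESeq2 adjusted p = 5.91e-10). The mean was 279 with SAHA and 985 in its Ctrl, and 769 with compound 1 and 982 in its Ctrl, computed from the authors' deposited tables. ARHGEF16, a guanine nucleotide exchange factor, averaged 61.0 with a6 and 151 in Ctrl (-1.31 ± 0.33, DESeq2 adjusted p = 0.0199), computed from the authors' deposited table. CYP1B1-AS1, an antisense gene of the CYP1B1 locus, had a log2 fold change of -1.49 ± 0.36 with a6 in the authors' deposited table, but reads of both strands of the locus may be shared, the strand setting being not given in the sources used here. Both ARHGEF16 and CYP1B1-AS1 also fell with SAHA, by 1.65 and 1.27 on the log2 scale in the authors' deposited table.

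**Figure D3:**
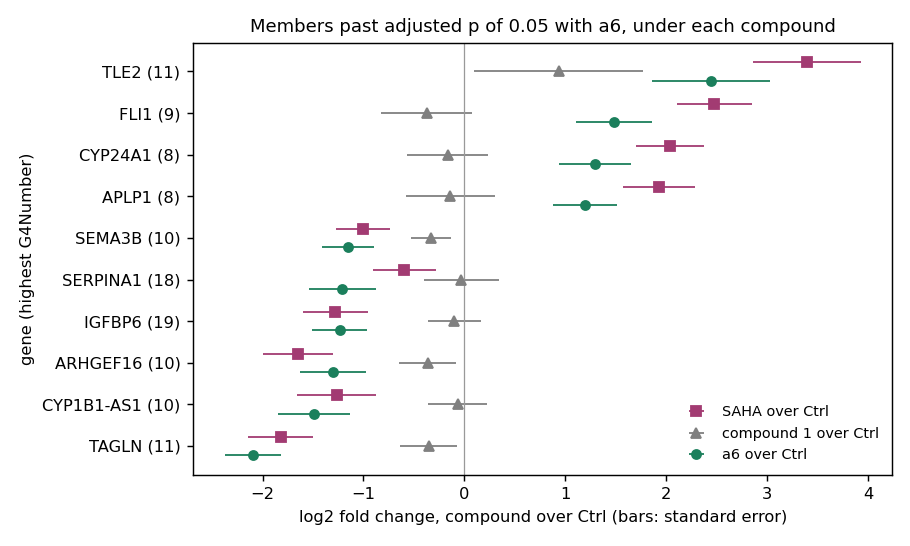
Log2 fold change over Ctrl (horizontal axis, bars are standard errors) of the 10 members that passed an adjusted p of 0.05 with a6 (vertical axis, highest G4Number in brackets), for SAHA, compound 1 and a6, from the authors' deposited tables. TAGLN lies at -2.10 with a6 and -1.82 with SAHA, TLE2 at 2.44 with a6 and 3.39 with SAHA, and the compound 1 points lie between -0.37 and 0.94.

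Some members listed by a6 did not pass the adjusted test. SLC22A31, of the SLC22 solute carrier family, had a log2 fold change of 1.45 ± 0.56 and the potassium channel gene KCNK7 one of 1.97 ± 0.66 with a6 in the authors' deposited table. NGFR, the low-affinity neurotrophin receptor, was at -1.93 ± 0.77 with a6 and -0.49 ± 0.61 with SAHA, and the fibrillar collagen gene COL1A2 was at -1.38 ± 0.54 with a6 and 0.23 ± 0.41 with SAHA, in the authors' deposited tables. SEMA3F, a secreted semaphorin like SEMA3B, was at -1.19 ± 0.40 with a6 and -0.04 ± 0.39 with SAHA in the authors' deposited tables. NEAT1, the noncoding RNA that scaffolds paraspeckles, averaged 1218 with a6 and 2552 in Ctrl, computed from the authors' deposited table (DESeq2 adjusted p = 0.0847). With SAHA, NEAT1 averaged 3091, against 2612 in Ctrl, computed from the authors' deposited table.

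With SAHA, 23 members rose and 41 fell, 64 of 138 (46.4%), where 7.55% of all 18534 genes were called, 4.53% higher and 3.02% lower, in the authors' deposited table. The SAHA lists chose 113 of the members, so no reading is made of this share. Among names with a G4Number of 1, 69 of 257 rose and 48 fell with SAHA in the authors' deposited table. The median log2 fold change with SAHA was -0.40 over the members, 0.11 over names with a G4Number of 1 and -0.05 over all genes in the 3 tables, computed from the authors' deposited table. Presence in the SAHA table alone gave 154 names with 8 or more. Of these, 27 rose and 41 fell with SAHA, and their median was -0.27, computed from the authors' deposited table. The Spearman correlation of the SAHA log2 fold change with transcript GC content over 14748 genes was -0.21. It was -0.33 for compound 1 and 0.03 for a6. With the SAHA trend removed, 26 members rose and 31 fell, 53 of them among the 64. Calls gained in this way were GPR35, POLD4 and VGF, all higher, and UBE2Q2, lower. The members' median with the trend removed was -0.37.

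By role, counts describe genes that the lists chose, in roles assigned by hand with earlier results known, and no enrichment was tested. For each role count with SAHA below, 4.53% of all genes were higher and 3.02% lower in the authors' deposited table. Of all 138 members, 46.4% were called with SAHA, so no reading is made of a role's share. The 11 transcription factors and corepressors had 2 that rose and 6 that fell with SAHA in the authors' deposited table. TLE2 averaged 86.6 with SAHA and 8.24 in Ctrl, and FLI1 224 with SAHA and 40.3 in Ctrl, computed from the authors' deposited table (DESeq2 adjusted p = 5.17e-08 and 8.28e-09). STAT5A, a signal transducer of cytokine and prolactin receptors, averaged 114 with SAHA and 494 in Ctrl, a log2 fold change of -2.12 ± 0.33, and 227 with a6 and 482 in Ctrl, computed from the authors' deposited tables. Of these, STAT5A was not called with a6 (DESeq2 adjusted p = 0.171 in the authors' deposited table). FOXM1, a driver of mitotic gene transcription, averaged 1047 with SAHA and 2681 in Ctrl, computed from the authors' deposited table (DESeq2 adjusted p = 3.00e-05). In the contrast of a6 with Ctrl, FOXM1 averaged 2544 with a6 and 2622 in Ctrl, computed from the authors' deposited table. The homeobox factors POU6F1 and SIX5, the interferon regulatory factor IRF7 and the Hairy-related repressor HES4 fell with SAHA by 2.02, 1.18, 1.29 and 1.15 on the log2 scale in the authors' deposited table. The calls of SIX5, IRF7 and HES4 were lost once the GC trend was removed.

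Of 7 cytoskeletal members, 5 fell and 0 rose with SAHA in the authors' deposited table, all 5 of them chosen by the list of SAHA-lowered genes. DMTN, the actin-bundling protein dematin, had the smallest adjusted p of any member with SAHA. It averaged 82.9 with SAHA and 484 in Ctrl, a log2 fold change of -2.55 ± 0.35 (DESeq2 adjusted p = 1.14e-10), and 228 with a6 and 473 in Ctrl, computed from the authors' deposited tables. TPM2, a tropomyosin, OBSL1, an obscurin-like scaffold, and PALM, a membrane-bound shape regulator, fell by 1.09, 1.18 and 1.26 on the log2 scale in the authors' deposited table, the call of PALM being lost once the GC trend was removed. TAGLN completes the 5. The remaining pair, TNNT1 and the microtubule-associated MAP7D1, had entered the lists through a contained name and were at -0.08 and 0.07 with SAHA in the authors' deposited table.

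Chromatin regulators had 3 of 10 lower and 0 higher with SAHA in the authors' deposited table. JADE2, a subunit of a histone acetyltransferase complex, averaged 618 with SAHA and 1646 in Ctrl, computed from the authors' deposited table (DESeq2 adjusted p = 5.32e-06). CHD3, a remodeller of the NuRD complex that also holds HDACs, averaged 1066 with SAHA and 2554 in Ctrl, and UHRF1, which guides maintenance DNA methylation, averaged 1139 with SAHA and 2301 in Ctrl, computed from the authors' deposited table. SMARCA4 and SMARCA2, listed as raised by SAHA through the names they contain, averaged 2575 and 339 with SAHA and 3595 and 339 in Ctrl, computed from the authors' deposited table. Neither was called.

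Of 6 genes of DNA replication, repair and division, 3 fell and 0 rose with SAHA in the authors' deposited table. POLE averaged 764 with SAHA and 1600.0 in Ctrl, and the DNA ligase LIG1, which joins Okazaki fragments, averaged 477 with SAHA and 1037 in Ctrl, computed from the authors' deposited table. CDCA5, the cohesin protector sororin, averaged 1312 with SAHA and 2643 in Ctrl, computed from the authors' deposited table. The same gene averaged 3079.8 with a6 and 2586 in Ctrl, computed from the authors' deposited table and not called. CDKN1C, the CDK inhibitor p57, had uncalled log2 fold changes of -0.94 ± 0.47 with SAHA and -1.04 ± 0.47 with a6 in the authors' deposited tables. POLD4, also of this role, was at 1.10 ± 0.40 with SAHA in the authors' deposited table and was not called there. POLD4 was called higher with SAHA, at 1.22, once the GC trend was removed.

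Intracellular signalling genes divided, with 6 of 16 higher and 5 lower with SAHA in the authors' deposited table. Besides NDRG2, its relative NDRG4 rose by 1.31 ± 0.35 on the log2 scale, and ARRB2, beta-arrestin 2, by 1.55 ± 0.31, in the authors' deposited table. PDE2A, a cyclic nucleotide phosphodiesterase, SRCIN1, an inhibitor of SRC kinase, and PRR5, a subunit of mTORC2, rose by 1.11, 1.37 and 1.55 in the authors' deposited table. SYDE1, a GTPase-activating protein, averaged 866 with SAHA and 2533 in Ctrl, and 2659 with a6 and 2478 in Ctrl, computed from the authors' deposited tables. So SYDE1 was lower with SAHA and near its Ctrl level with a6. RAPGEF3, the cAMP sensor EPAC1, ARHGEF16, HOMER3, a postsynaptic scaffold of the Homer family, and EPS8L1, related to the actin regulator EPS8, fell by 1.61, 1.65, 1.24 and 1.25 with SAHA in the authors' deposited table, and the call of EPS8L1 was lost once the GC trend was removed.

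**Figure D4:**
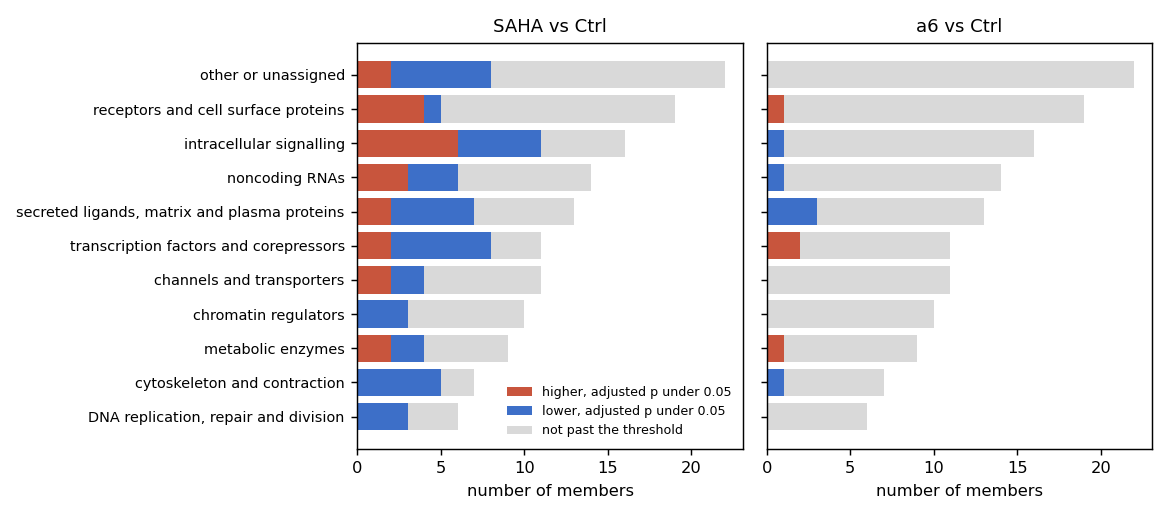
Number of members (horizontal axis) in each of 11 roles (vertical axis) that were higher (red), lower (blue) or not past an adjusted p of 0.05 (grey) against Ctrl with SAHA and with a6, from the authors' deposited tables. With SAHA, cytoskeletal, chromatin and replication genes have blue and grey segments alone, and receptors have 4 higher and 1 lower of 19. With a6, the role of secreted ligands, matrix and plasma proteins has 3 lower of 13. Of all genes tested, 4.53% were higher and 3.02% lower with SAHA, and 0.243% higher and 0.341% lower with a6.

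Receptors and cell surface proteins had 4 of 19 higher and 1 lower with SAHA in the authors' deposited table. FGFR4, a fibroblast growth factor receptor, averaged 709.9 with SAHA and 329 in Ctrl, and APLP1 averaged 844 with SAHA and 222 in Ctrl, computed from the authors' deposited table. SUSD4, a complement regulator, and ASTN2, an astrotactin of neuronal migration, rose by 1.95 and 1.34 on the log2 scale in the authors' deposited table. SIGIRR, a damping member of the interleukin-1 receptor family, averaged 28.0 with SAHA and 123 in Ctrl, and 42.2 with a6 and 120.3 in Ctrl, computed from the authors' deposited tables. It was called with SAHA (DESeq2 adjusted p = 2.73e-06) and not with a6 (adjusted p = 0.151) in the authors' deposited tables. The 95% interval of its difference of a6 from SAHA ran from -0.58 to 1.83 on the log2 scale (z test).

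Secreted ligands, matrix and plasma proteins had 2 of 13 higher and 5 lower with SAHA in the authors' deposited table. NRG1, the neuregulin that activates ERBB receptors, averaged 761 with SAHA and 370.2 in Ctrl, and the cartilage collagen gene COL11A2 averaged 48.0 with SAHA and 12.3 in Ctrl, computed from the authors' deposited table. SERPINH1, the collagen chaperone HSP47, averaged 1892 with SAHA and 5270.0 in Ctrl, computed from the authors' deposited table (DESeq2 adjusted p = 1.42e-06). It was placed by hand in this role, although this chaperone is not itself a secreted, matrix or plasma protein. APOC1, an apolipoprotein, averaged 5.93 with SAHA and 38.7 in Ctrl, and 10.7 with a6 and 37.7 in Ctrl, computed from the authors' deposited tables. CSF3, the granulocyte growth factor G-CSF, averaged 2.37 with SAHA and 24.2 in Ctrl, computed from the authors' deposited table, so that its log2 fold change of -3.35 ± 0.84 rests on low mean counts. IGFBP6 and SEMA3B complete the 5, and SEMA3B lost its SAHA call once the GC trend was removed.

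Enzymes and transporters held some of the highest values. CYP1A1, the aryl hydrocarbon-inducible cytochrome P450, averaged 1164 with SAHA and 272 in Ctrl, and 465 with a6 and 265 in Ctrl, computed from the authors' deposited tables. It was called with SAHA (DESeq2 adjusted p = 1.38e-06) and not with a6 (0.497) in the authors' deposited tables. CYP24A1 averaged 219 with SAHA and 53.4 in Ctrl, and SLC22A31 averaged 151 with SAHA and 18.1 in Ctrl, computed from the authors' deposited table. NNT, which makes NADPH in mitochondria, averaged 372 with SAHA and 1131 in Ctrl, computed from the authors' deposited table. Of the remaining members of these roles, LMBRD1, a lysosomal cobalamin transport protein, rose by 1.29, and ALKBH7, ATP8B3 and SLC26A11 fell by 1.18, 1.03 and 1.06 with SAHA in the authors' deposited table. The calls of ALKBH7 and SLC26A11 were lost once the GC trend was removed.

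Noncoding genes had 3 of 14 higher and 3 lower with SAHA in the authors' deposited table. PVT1, LINC00910 and AC022784.1 rose by 1.02, 1.39 and 1.63, and LINC01089, AC010336.2 and CYP1B1-AS1 fell by 2.08, 1.67 and 1.27, in the authors' deposited table. The call of AC010336.2 was lost once the GC trend was removed. AC133785.1 was at -1.31 ± 0.60 with SAHA and -1.63 ± 0.66 with a6 in the authors' deposited tables, uncalled in both.

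The 22 genes without a shared role had 2 that rose and 6 that fell with SAHA in the authors' deposited table. FAM86B1 and the zinc finger gene ZNF385A rose by 1.32 and 1.00 on the log2 scale in the authors' deposited table. ANKRD65, an ankyrin repeat gene, had the lowest log2 fold change of all members at -4.01 ± 0.96, with mean counts of 1.51 with SAHA and 24.3 in Ctrl, computed from the authors' deposited table. C8orf82 averaged 135 with SAHA and 588 in Ctrl, computed from the authors' deposited table (DESeq2 adjusted p = 7.09e-07). BID, a pro-apoptotic BH3 protein, RNH1, PLEKHN1 and ANKRD16 fell by 1.14, 1.11, 1.23 and 0.97 with SAHA in the authors' deposited table, and the calls of PLEKHN1 and ANKRD16 were lost once the GC trend was removed. FBXL16, an F-box protein, was at -1.25 ± 0.47 with SAHA and -1.63 ± 0.47 with a6 in the authors' deposited tables and passed the test in neither.

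Compound 1 changed 0 of the 138 members at an adjusted p under 0.05 (DESeq2), and 0% of all 27126 genes, in the authors' deposited table. At an unadjusted p under 0.05, 54 of 27126 genes passed, a share far below the 0.05 that evenly spread p-values would give. The reason was not tested, and 0 calls do not show that compound 1 had no effect. Member log2 fold changes ran from -1.91 to 1.68 with a median of -0.05, and 3 members were at least 2-fold from Ctrl, computed from the authors' deposited table. LINC00707 averaged 3.50 with compound 1 and 13.1 in Ctrl, AL353593.1 averaged 28.3 with compound 1 and 12.9 in Ctrl, and CSF3 averaged 77.4 with compound 1 and 24.2 in Ctrl, computed from the authors' deposited table. LINC00707 and AL353593.1 are noncoding genes that entered through the compound 1 lists. The third listed gene, the MYB-family factor MYBL1, contains MYB and had a log2 fold change of 0.05 ± 0.48 with compound 1 in the authors' deposited table.

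The 38 members that were in no matching list of changed genes were set apart because they missed the p and fold limits of those lists, so few calls among them follow from how they were defined. With SAHA, 0 of them rose and 1 fell in the authors' deposited table, and of the 70 such names with a G4Number of 1, 1 rose and 3 fell. The median log2 fold change of the 38 was -0.16 with SAHA, -0.05 with compound 1 and -0.15 with a6, against -0.07, 0.00 and -0.14 for those 70 names, computed from the authors' deposited tables. Their log2 fold changes with SAHA ran from -0.97 for ANKRD16 to 0.87 for ANKRD24 in the authors' deposited table. The 1 called gene was ANKRD16, which contains ANKRD1 and stood among the SAHA-raised genes, while its mean count was 112 with SAHA and 219 in Ctrl, computed from the authors' deposited table (DESeq2 adjusted p = 0.0265). Of the 14 such members of the list of SAHA-raised genes, 4 had a fold change above 0 in the authors' deposited table. Of 13 members that entered the list of SAHA-lowered genes through a contained name, 8 had a fold change below 0. These 13 include TNFRSF19, which is not among the 38. In the list of a6-lowered genes, 8 of 12 members that entered in this way had one below 0. Among members in a changed list under their own name, 63 of 100 were called with SAHA and 10 of 100 with a6 in the authors' deposited tables. Of all genes tested, 7.55% were called with SAHA and 0.583% with a6. The same contrasts chose these 100, so no reading is made of the counts. Of the 187 such names with a G4Number of 1, 113 were called with SAHA and 8 with a6.

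Entries with a number of 8 or more made up 16.6% of the G4-related list of SAHA-lowered genes and 8.99% of that of SAHA-raised genes, and 12.3% of the list of a6-lowered genes (40 of 326) and 9 of 75 entries of that of a6-raised genes. Names entered by containment count among these. Of changed genes present in all 3 tables, 54 of 578 lowered by SAHA (9.34%) and 33 of 748 raised by SAHA (4.41%) were members under their own name. With a6 these were 23 of 248 lowered (9.27%) and 6 of 149 raised (4.03%), and with compound 1, 1 of 8 lowered and 1 of 8 raised (12.5% each). Presence in all 3 tables kept 578 of 609 genes lowered by SAHA but 748 of 1327 raised by SAHA. With a6 it kept 248 of 248 lowered and 149 of 150 raised genes. The SAHA shares are thus over unlike parts of the 2 directions. No test of a difference between directions was made. The SAHA and a6 gene sets share their Ctrl libraries and, in part, their genes. Their median transcript GC content was 56.6% for genes lowered and 48.7% for genes raised by SAHA, and 54.7% for genes lowered and 50.4% for genes raised by a6. The part of GC content in these shares was not tested.

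Differences between compounds at the same dose and time were tested over all genes shared by the tables, in 3 pairs, with a z test on the difference of the deposited log2 fold changes and Benjamini-Hochberg adjustment. The lists that chose the members came from the same contrasts, so these differences are not independent of the choice. Between a6 and SAHA, 2 of 138 members differed, both higher with a6, where 0.256% of all genes differed and 0.059% were higher. This takes the errors of the contrasts as independent, although they share Ctrl, and with an error correlation of 0.5 the z test called 22 members, 13 higher and 9 lower with a6. SYDE1 was higher with a6 by 1.65 ± 0.33 on the log2 scale (z test, adjusted p = 0.00171) and JADE2 by 1.44 ± 0.35 (z test, adjusted p = 0.0214). Both had fallen with SAHA, and their a6 means were 2659, against 2478 in Ctrl, for SYDE1 and 1642, against 1611 in Ctrl, for JADE2, computed from the authors' deposited table. With independent errors the test did not separate a6 from SAHA for the other members, which does not show that they act alike. The 95% interval of the difference lay within 2-fold either way for 17 of the 138, and for the rest it reached past 2-fold in at least 1 direction, also with independent errors.

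Between a6 and compound 1, TAGLN alone among the members differed, where 0.0328% of all genes did and 0.0262% were lower with a6. It was lower with a6 by 1.74 on the log2 scale, ± 0.40 (standard error), with a 95% interval of -2.52 to -0.97 (z test, adjusted p = 0.0336), and the call was lost when fold changes were centred on their medians. Intervals lay within 2-fold for 36 of 138 members. With an error correlation of 0.5 the z test called 5 members between a6 and compound 1, 2 higher and 3 lower with a6. Between SAHA and compound 1, 17 members differed, 4 higher and 13 lower with SAHA, where 1.06% of all genes did, 0.583% higher and 0.481% lower, and with an error correlation of 0.5 it was 50, 16 higher and 34 lower. FLI1, CYP24A1, CYP1A1 and APLP1 were higher by 2.85, 2.20, 2.13 and 2.06 on the log2 scale (z test). DMTN, SYDE1, C8orf82, JADE2 and NNT had the smallest adjusted p of the lower ones, with differences of -2.46, -1.57, -1.97, -1.45 and -1.64 (z test). STAT5A, CSF3, ANKRD65, CHD3, SERPINH1, FOXM1, SIGIRR and APOC1 were the other lower ones.

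At the threshold of 8, 25 members had exactly this number and 28 names had 7. With SAHA the median log2 fold change was -0.23 at 8, with a range of -4.01 to 2.03, and -0.65 at 7, with a range of -1.82 to 1.69, computed from the authors' deposited table. With a6 it was -0.26 at 8 and 0.02 at 7, computed from the authors' deposited table. The members at 8 called with a6 in the authors' deposited table were CYP24A1 and APLP1.

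Genes that act on G4s were looked at as a separate list. Of 28 measured helicases and G4-binding proteins, 1 fell and 0 rose with SAHA (where 3.02% of all genes were lower and 4.53% higher), and 0 were called with compound 1 or a6, in the authors' deposited tables (DESeq2). PIF1, the helicase that fell, averaged 135 with SAHA and 363 in Ctrl (DESeq2 adjusted p = 0.000273), computed from the authors' deposited table, and 283 with a6 and 354 in Ctrl. Of 22 measured genes with well-known promoter G4s, 1 rose and 5 fell with SAHA (where 4.53% of all genes were higher and 3.02% lower), and 0 were called with compound 1 or a6, in the authors' deposited tables (DESeq2). CD274, encoding PD-L1, averaged 483 with SAHA and 228 in Ctrl, and TERT, the telomerase catalytic subunit, averaged 36.8 with SAHA and 106 in Ctrl, computed from the authors' deposited table. TYMS, thymidylate synthase, averaged 1316 with SAHA and 3489 in Ctrl, computed from the authors' deposited table.

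The labelled cell line was checked against its markers. VIM, the mesenchymal filament vimentin, averaged 21099.7 in Ctrl, whereas the hormone receptors ESR1 and PGR averaged 0.66 and 0.337 and the epithelial cadherin CDH1 5.06, computed from the authors' deposited table of compound 1. The receptor kinase gene ERBB2, which is not amplified in triple-negative lines, averaged 2098 in Ctrl, computed from the same authors' deposited table. EPCAM and GATA3, epithelial genes also listed as low or absent in this line, averaged 172 and 75.8 in Ctrl there. Of markers of other cell types, 1 of 4 haematopoietic, 2 of 3 endothelial and 2 of 4 fibroblast genes were in the SAHA table, and 1 of each kind was called with SAHA, all higher (DESeq2). These were CD14, at 99.3 with SAHA and 28.2 in Ctrl, KDR, at 123 with SAHA and 41.7 in Ctrl, and LUM, at 49.3 with SAHA and 0.378 in Ctrl, computed from the authors' deposited table. Their part in the members' values was not tested. The known HDAC inhibitor responses CPA4 and CDKN1A rose with SAHA by 3.15 and 1.26 on the log2 scale in the authors' deposited table. Total counts per library are not in these tables, so depth is unknown here, and the median standard error of the members' log2 fold changes was 0.36 with SAHA, 0.38 with compound 1 and 0.34 with a6.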

How the data were processed

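RNA of 12 libraries from MDA-MB-231 cells, 3 each with SAHA, compound 1, a6 or DMSO, was compared by the authors. Per the submitters' processing notes, cutadapt, DESeq2 and GRCh38 (hg38) were used; the aligner, counter, versions and strand setting were not given in the sources used here. Per the file headers, each of the authors' 3 comparison tables holds, for every gene, the mean normalised count over the libraries compared (a signal at or above 0), the log2 fold change and its error, the Wald score, and the p-value before and after adjustment. Gene names, a G4Number (another whole number) and its running total fill the 6 deposited G4-related lists. Checked on the files, the adjusted p was a Benjamini-Hochberg adjustment over each table, and the deposited lists of changed genes held genes with an unadjusted p under 0.05 and at least 2-fold, with 0 mismatches. No depth is given, and 0 columns of values per library were used. Tables began at a mean count of 2.44 for SAHA, 0.145 for compound 1 and 9.31 for a6.

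Compound and Ctrl means were computed from the mean count and fold change for equal groups. Each contrast used the authors' DESeq2 Wald test, adjusted over its table. Differences between compounds used a two-sided z test adjusted over shared genes, whose error is too large where Ctrl is shared. The z test and its calls were tried on simulated fold changes of a6 and SAHA, and the DESeq2 calls were not. Names were matched exactly. Transcript number, GC content and positions came from GENCODE 29, promoters from RefSeq (GRCh38.p14). Genes named are the 10 highest G4Numbers, up to 5 called each way per contrast and difference, and members listed by more than 1 compound; further members were named by role after their values were seen, and roles were assigned by hand. The members and lists were chosen with earlier results of these data known. Alternatives were other thresholds, counts and scalings; restriction to changed lists and removal of a lowess GC trend (share 0.3) were chosen after seeing the data. Python 3.11.15, pandas 2.3.3, scipy 1.17.1 and statsmodels 0.14.6 were used.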

Additional observations from a re-analysis of the deposited data

How the results depend on the processing

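Under the alternatives, 47 recomputed values stayed within 1.5 times the count or within the interval of the median or share, 10 moved further and 0 reversed. Compound 1 called 0 members under each of them (DESeq2). At an adjusted p under 0.01, 42 members were called with SAHA and 3 with a6 in the authors' deposited tables (DESeq2). With an error correlation of 0.5 for the shared Ctrl, the z test called 22 members between a6 and SAHA (13 higher, 9 lower), 5 between a6 and compound 1 and 50 between SAHA and compound 1 (16 higher, 34 lower). Between a6 and compound 1 the count was 0 with fold changes centred on their medians and 2 among the 199 names with a G4Number of 6 or more, and between SAHA and compound 1 it was 10 among the 95 names with 10 or more. The a6 median over members in no list of changed genes was -0.15. Loops of 1 to 12 bases put a motif in 66.3% of member promoter windows. At this setting the share was 66.5% for names with a G4Number of 1 and 51.2% for all genes in the 3 tables. No paired analysis was possible because the columns carry no values per library, and for the same reason no library could be left out. Depth is unknown, so the standard error sets what could be detected. The causes of these moves were not tested beyond what each setting changes by its own construction.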
